A study of Mus musculus with 25 samples.

Results

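The miR-17~92 and miR-106b~25 clusters are paralogous groups of microRNA hairpins, and their 9 precursors were followed across adult life in the mouse brain. The members were the rows mmu-mir-17, mmu-mir-18a, mmu-mir-19a, mmu-mir-20a, mmu-mir-19b-1 and mmu-mir-92a-1 (miR-17~92, 6 hairpins) and mmu-mir-106b, mmu-mir-93 and mmu-mir-25 (miR-106b~25, 3 hairpins) of a table of 1193 precursors. They were taken by name, with earlier results of these data known, and the prefix for mouse is left out from here on. The 25 small RNA libraries, 5 at each of the ages 2, 9, 15, 24 and 30 months, were made from a brain hemisphere of males of C57BL/6, an inbred laboratory strain. No genotype or treatment other than age is given in the labels. Each title holds its own animal number, by which every replicate counts as 1 mouse.

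MicroRNAs are short RNAs cut from hairpins. They guide Argonaute proteins to messenger RNAs, mainly through the seed at bases 2 to 8, and lower their output. Each of these clusters is transcribed as 1 primary RNA from which the hairpins are cut one by one, so hairpins of 1 transcript can differ in mature level. The miR-17~92 cluster is driven by MYC and E2F factors and promotes proliferation and survival; in the mouse it is active in neural progenitors. The miR-106b~25 cluster lies inside Mcm7, which encodes a subunit of the replicative helicase, and has been linked to proliferation of mouse neural stem cells. Known targets of the miR-17 seed include Cdkn1a and E2f1.

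The mature sequences are shown because their seeds group the members and because near-identical letters limit what the counts can separate. They come from RefSeq (GRCm38.p6), which held all 9. The arm shown is the one that carries the family seed, but the deposited table has 1 row per hairpin and does not separate its arms. Capitals mark the seed, written 5′ to 3′.
miR-17-5p: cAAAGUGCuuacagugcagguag
miR-20a-5p: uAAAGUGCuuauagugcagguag
miR-106b-5p: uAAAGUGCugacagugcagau
miR-93-5p: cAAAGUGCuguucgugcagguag
miR-18a-5p: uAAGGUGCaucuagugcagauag
miR-19a-3p: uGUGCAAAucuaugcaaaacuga
miR-19b-3p: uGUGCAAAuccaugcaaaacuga
miR-92a-3p: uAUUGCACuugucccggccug
miR-25-3p: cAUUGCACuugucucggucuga
Thus 4 members share the seed AAAGUGC across both clusters, mir-92a-1 and mir-25 share AUUGCAC, mir-19a and mir-19b-1 share GUGCAAA, and mir-18a stands alone with AAGGUGC. Counted from the 5′ end of miR-17-5p, miR-20a-5p differs by C1U and C12U. By the same count miR-93-5p differs by U10G, A11U, C12U and A13C, all outside the seed. miR-19b-3p differs from miR-19a-3p by U11C alone.

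In the GENCODE M21 annotation of GRCm38 each of the 6 hairpins of miR-17~92 overlaps an exon of 1 transcript of the noncoding gene Mir17hg. They lie on chromosome 14, plus strand, from 115043671 (start of mir-17) to 115044506 (end of mir-92a-1). The miR-106b~25 hairpins lie inside Mcm7 on chromosome 5, minus strand. Of these, mir-106b is at 138165737 to 138165818, mir-93 at 138165523 to 138165610 and mir-25 at 138165321 to 138165404. All 3 are intronic in 2 Mcm7 transcripts, and mir-93 and mir-25 also overlap an exon of 1 other transcript. The build the authors counted on is not given in the sources used here, so these positions describe the genes and not the alignment.

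An X-linked paralogous cluster, running from mir-106a to mir-363, carries copies of the same families and decides how far single loci could be read. The mature miR-19b-3p and miR-92a-3p are each encoded at 2 loci, and the letters around them are shown with 3 bases before and 4 after the mature sequence, in capitals where the copies differ.
mir-19b-1: UgcugugcaaauccaugcaaaacugaCugu
mir-19b-2: GgcugugcaaauccaugcaaaacugaUugu
mir-92a-1: UGguauugcacuugucccggccugUUga
mir-92a-2: AAguauugcacuugucccggccugAGga
The 2 copies of miR-19b divided their reads nearly evenly, with 45.4% to 53.3% on mir-19b-1 across libraries (mean 49.8%), so mir-19b-1 is not a separate measurement from mir-19b-2. mir-92a-1 held 90.0% to 93.0% of the reads of its pair. The treatment of reads with several matches is not given in the sources used here, so the loci of these pairs cannot be told apart where a read ends within the shared letters. mir-17 held at least 97.9% of the reads of its pair with mir-106a, mir-20a at least 94.1% with mir-20b, and mir-18a at least 87.5% with mir-18b.

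Total counts per library ranged from 3779993 to 9524043, with a median of 5608617, and all 9 members were among the 425 precursors that passed the filter on low counts. Levels are given as CPM, the count relative to the library total after TMM scaling (trimmed mean of M values). The neuron markers summed to between 58847 and 79792 CPM in every library, while the liver marker mir-122 stayed at or below 5.99 CPM and the summed heart-muscle markers at or below 10.7 CPM. The 5 libraries of sequencing lane 3, 1 of each age, differed from those of the other lanes in several members. They were replicate 1 at 2 months, 2 at 9, 3 at 15, 4 at 24 and 5 at 30. No other lane was set against the rest in this way. Among the members the lane 3 difference was widest for mir-19b-1, which was lowest in the lane 3 library at each of 5 ages (mean log2 difference from the other lanes -0.55), and for mir-19a (-0.43), followed by mir-18a (-0.22, lowest there at 2 of 5 ages). mir-93 was lowest in lane 3 at 4 of 5 ages (-0.13), and mir-17 (0.07), mir-20a (0.13) and mir-92a-1 (0.14) were slightly higher there on average. The difference changed sign between ages for mir-17 (-0.08 to 0.26) and mir-92a-1 (-0.03 to 0.31), both highest at 30 months. On average mir-25 (0.04) and mir-106b (0.002) differed least. Values without lane 3 are therefore given beside each change of a member between 2 ages, and each slope of a member, that passed the test.

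The hairpins of 1 transcript differed widely in read level. In miR-17~92, mir-92a-1 averaged 1049 ± 122 CPM over the 25 libraries (SD) and held 87.2% to 93.6% of the cluster's reads. It was followed by mir-17 with 37.1 ± 4.07 CPM, mir-19b-1 with 35.2 ± 6.55 CPM and mir-20a with 30.3 ± 4.93 CPM, whose ranges overlapped. mir-19a (5.62 ± 1.61 CPM) and mir-18a (4.68 ± 0.910 CPM) were the lowest, with 14 to 52 reads per library between them, and overlapped as well. In miR-106b~25, mir-25 (754 ± 50.3 CPM) and mir-93 (641 ± 64.5 CPM) overlapped in range, and both lay above mir-106b (127 ± 5.88 CPM) in every library. A read covers a mature miRNA whole, so no length correction applies, but ligation and amplification differ between sequences and these are read levels, not molecules. Deposited counts showed mir-92a-1 at rank 101, mir-25 at 115 and mir-93 at 122 of 1193 precursors by mean level.

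**Figure D1:**
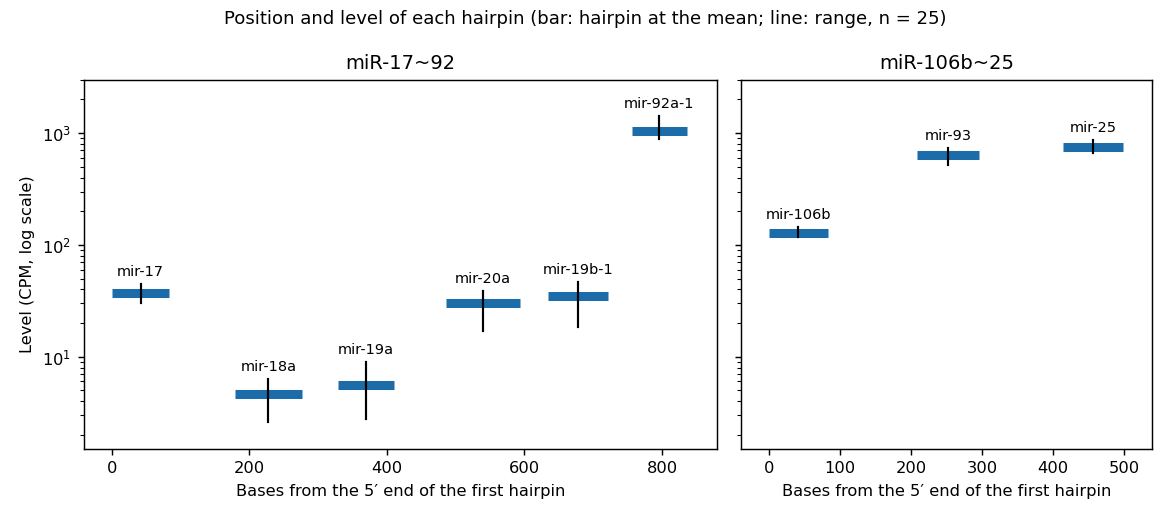
Mean level of each hairpin (CPM, log scale) against its distance in bases from the first hairpin of its cluster, drawn at the length of the hairpin; vertical lines give the range over 25 libraries. In miR-17~92 the last hairpin, mir-92a-1, lies far above the other 5, and in miR-106b~25 mir-106b lies below mir-93 and mir-25.

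At 30 against 2 months, the ends of the age series, 4 of the 9 members passed the test: mir-93 and mir-92a-1 rose, and mir-17 and mir-20a fell. Of the 425 precursors tested, 36.9% were called, 19.1% higher and 17.9% lower at 30 months, so the members' count of 2 in each direction lies near the background. The median log2 fold change of the members was -0.02, against 0.05 over all precursors tested. Upper-quartile scaling gave 50 calls upward and 91 downward over all precursors, against 81 and 76 with TMM, so the balance of directions depends on the scaling. In whole tissue, fewer cells of a type and less RNA per cell cannot be told apart.

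Among the members the lowest adjusted p was that of mir-93, a hairpin of the AAAGUGC seed family. At 30 months the 5 libraries gave 708, 741, 710, 709 and 709.6 CPM for mir-93, against 513, 586, 582, 574 and 561 CPM at 2 months. All 5 libraries at 30 months lay above all 5 at 2 months; 10.4% of the 425 precursors were separated upward in this way. The log2 fold change of mir-93 was 0.35 ± 0.06 (SE, n = 5 per age, edgeR adjusted p = 3.18e-05), which is 1.27-fold. Without lane 3 it was 0.29 (adjusted p = 1.33e-04), and over the 35 alternative settings and left-out libraries it lay between 0.27 and 0.35, past the threshold in all 35. Within the 4 lanes that held both ages mir-93 was higher at 30 months in each, by 0.28 to 0.47 on the log2 scale.

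The other hairpins of the Mcm7 cluster did not pass the test. mir-25, with the AUUGCAC seed, averaged 780 ± 47.2 CPM at 30 months and 761 ± 44.8 CPM at 2 months (SD, n = 5), and its log2 fold change of 0.04 ± 0.06 had an edgeR adjusted p of 0.663 (± SE). It changed sign in 5 of the alternatives, among them upper-quartile scaling (-0.03) and the fit without lane 3 (-0.02). mir-106b, which shares its seed with mir-93, averaged 128 ± 2.93 CPM at 30 months and 123 ± 4.80 CPM at 2 months (0.06 ± 0.05, adjusted p = 0.387; -0.01 under upper-quartile scaling). The spread of mir-106b between mice was small, with no library of the 25 outside 118 to 144 CPM.

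In miR-17~92 the hairpins with the AAAGUGC seed fell. mir-17 gave 30.9, 31.7, 34.3, 30.1 and 38.1 CPM at 30 months, against 43.9, 41.2, 35.7, 42.7 and 38.7 CPM at 2 months. Of the 30-month libraries 4 lay below all of those at 2 months, and the fifth, the one of lane 3, overlapped them. The log2 fold change of mir-17 was -0.29 ± 0.08 (SE, n = 5 per age, edgeR adjusted p = 0.00690), and -0.34 without lane 3 (adjusted p = 0.00424). mir-20a gave 30.7, 22.2, 26.7, 16.98 and 24.0 CPM at 30 months, against 38.3, 30.0, 29.3, 35.4 and 32.4 CPM at 2 months. Again 4 of the 5 older libraries lay below all 5 younger ones. mir-20a fell by 0.46 on the log2 scale (SE 0.12, adjusted p = 0.00513; -0.43 without lane 3, adjusted p = 0.0282). Both calls held in all 35 alternatives, with mir-17 between -0.39 and -0.26 and mir-20a between -0.59 and -0.36. Within lanes mir-17 was lower at 30 months in 4 of 4 (-0.42 to -0.17), and mir-20a was lower in all but lane 5 (-0.66 to 0.07).

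At the other end of the same transcript mir-92a-1, known for restraining vessel growth, rose. It gave 1172, 1064, 1174, 1132 and 1412 CPM at 30 months, against 1089, 1127, 1009, 892 and 984.6 CPM at 2 months. Of the 30-month libraries 4 lay above all 5 at 2 months. The log2 fold change of mir-92a-1 was 0.22 ± 0.08 (SE, n = 5 per age, edgeR adjusted p = 0.0267), and it was lost without lane 3 (0.15, adjusted p = 0.123), under upper-quartile scaling (0.15, adjusted p = 0.155) and with only the 2 ages in the fit (0.19, adjusted p = 0.144). It was also lost in 14 of 25 refits without 1 library: 2-month replicates 3, 4 and 5, 9-month replicates 1, 3 and 5, 15-month replicates 1, 4 and 5, 24-month replicates 2 and 3, and 30-month replicates 1, 3 and 5 (0.12 to 0.20, adjusted p from 0.0502 to 0.214). The lowest value was that without 30-month replicate 5, the highest library. Within lanes mir-92a-1 was higher at 30 months in 4 of 4 (0.22 to 0.37).

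The remaining hairpins of Mir17hg did not pass between 30 and 2 months. mir-19a averaged 5.46 ± 1.64 CPM at 30 months and 7.20 ± 0.940 CPM at 2 months (SD, n = 5; log2 fold change -0.44 ± 0.22, SE, edgeR adjusted p = 0.115), and passed without 30-month replicate 1 (-0.61, adjusted p = 0.0355). mir-19b-1 averaged 36.0 ± 7.22 CPM at 30 months and 38.6 ± 3.68 CPM at 2 months (-0.10 ± 0.18, adjusted p = 0.671). mir-18a averaged 4.92 ± 1.67 CPM at 30 months and 4.90 ± 0.792 CPM at 2 months (-0.02 ± 0.18, adjusted p = 0.925), and its older libraries were spread from 2.60 to 6.28 CPM.

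**Figure D2:**
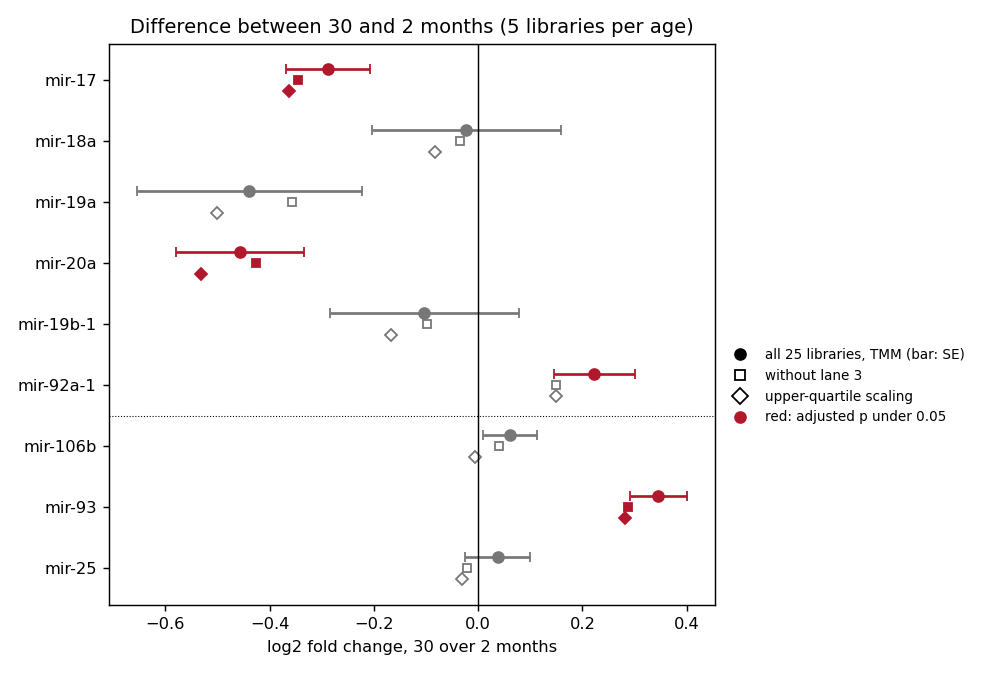
log2 fold change at 30 over 2 months for each member with all libraries (circles, bars give SE), without lane 3 (squares) and under upper-quartile scaling (diamonds), red where the adjusted p is under 0.05. mir-17, mir-20a and mir-93 are red under all 3, and mir-92a-1 with all libraries and TMM alone.

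Across the 5 ages the members took different courses. mir-93 averaged 563 ± 29.5, 600.4 ± 42.6, 649 ± 29.7, 679 ± 52.0 and 716 ± 14.5 CPM at 2, 9, 15, 24 and 30 months (SD, n = 5 each), so each mean lay above the one before. Its slope was 0.15 ± 0.02 log2 units per 12 months (SE, edgeR adjusted p = 6.29e-06), and 0.13 without lane 3. mir-92a-1 averaged 1020.3 ± 92.4, 960.0 ± 67.9, 983.6 ± 57.6, 1090.4 ± 110 and 1191 ± 131 CPM at the same ages, with its lowest mean at 9 months. The slope of mir-92a-1 was 0.11 ± 0.03 per 12 months (adjusted p = 0.00906), 0.09 without lane 3, and it was lost without 30-month replicate 5 alone among the left-out libraries (0.07, adjusted p = 0.0606). mir-19a averaged 7.20 ± 0.940, 6.28 ± 1.74, 4.82 ± 1.21, 4.36 ± 1.01 and 5.46 ± 1.64 CPM, a slope of -0.23 ± 0.09 per 12 months (adjusted p = 0.0352). That call was lost without lane 3 (-0.19, adjusted p = 0.0742), without 2-month replicate 4 (-0.23) or 5 (-0.20), without 30-month replicate 3 (-0.24) or 5 (-0.22) and with no filter on low counts (-0.23). Thus 2 members rose and 1 fell along the slope, against 19.5% and 16% of all precursors tested.

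mir-17 and mir-20a did not pass the slope test (-0.06 ± 0.04 and -0.11 ± 0.06 log2 units per 12 months, SE, edgeR adjusted p = 0.173 and 0.143); mir-17 passed it without 24-month replicate 5 alone (-0.08, adjusted p = 0.0498). Their means were lowest at 30 months, next lowest at 9 months, and close to the 2-month level at 24 months. mir-17 averaged 40.4 ± 3.28, 34.5 ± 1.79, 38.4 ± 3.68, 39.1 ± 3.36 and 33.0 ± 3.25 CPM from 2 to 30 months, and mir-20a averaged 33.1 ± 3.77, 29.3 ± 3.78, 31.2 ± 3.74, 33.8 ± 1.46 and 24.1 ± 5.12 CPM (SD, n = 5 each). The test for a departure from a straight line called 0 of the 9 members (7.06% of all precursors), with 2 at an unadjusted p under 0.05, mir-20a (adjusted p = 0.0970) and mir-17 (adjusted p = 0.106). DESeq2 called mir-20a there (adjusted p = 0.0161), as did edgeR without 30-month replicate 1 (adjusted p = 0.0146), and mir-17 passed without 30-month replicate 5 (adjusted p = 0.0408).

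Between adjacent ages 1 difference passed. mir-20a fell to 24.1 ± 5.12 CPM at 30 months, against 33.8 ± 1.46 CPM at 24 months (SD, n = 5; log2 fold change -0.49 ± 0.12, SE, edgeR adjusted p = 0.0163). The 30-month values given above lay below each of the 24-month values of 35.3, 33.7, 31.6, 34.98 and 33.7 CPM; 2.35% of the precursors were separated downward in this way, and 8.71% were called, 2.59% downward. The mir-20a call held without lane 3 (-0.50, adjusted p = 0.0436) and was lost with only the 2 ages in the fit (-0.50, adjusted p = 0.0583). mir-17 lay at -0.24 ± 0.08 over the same interval and missed the threshold (adjusted p = 0.0678), but passed in 17 of 35 alternatives. These included the fit without lane 3 (-0.34, adjusted p = 0.0196) and those without 2-month replicate 1, 3, 4 or 5, 9-month replicate 2 or 4, 15-month replicate 1, 2, 3 or 5, 24-month replicate 3 or 30-month replicate 5. With edgeR, 0 members were called at 9 against 2 months (7.76% of all precursors, 1 member at an unadjusted p under 0.05), 15 against 9 months (0% and 0 members) or 24 against 15 months (0.235% and 0 members), and DESeq2 called 0 as well. At 9 against 2 months that member was mir-17 (-0.23 ± 0.08, adjusted p = 0.0859). Any difference among the 5 ages was called for 4 members, mir-93, mir-92a-1, mir-20a and mir-17 (adjusted p from 2.06e-04 to 0.0230), against 32.7% of all precursors. Without lane 3 it was called for 3 members, mir-20a being lost (adjusted p = 0.0758). mir-92a-1 was lost without 30-month replicate 5 (adjusted p = 0.0564), and mir-17 with no filter on low counts (adjusted p = 0.0793). mir-19a missed the test for any difference with all libraries (adjusted p = 0.0613) and passed with lane as a covariate (adjusted p = 0.0357), with DESeq2 (0.0273), under upper-quartile scaling (0.0490) and without 9-month replicate 5, 15-month replicate 4, 24-month replicate 1 or 30-month replicate 1 or 5.

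**Figure D3:**
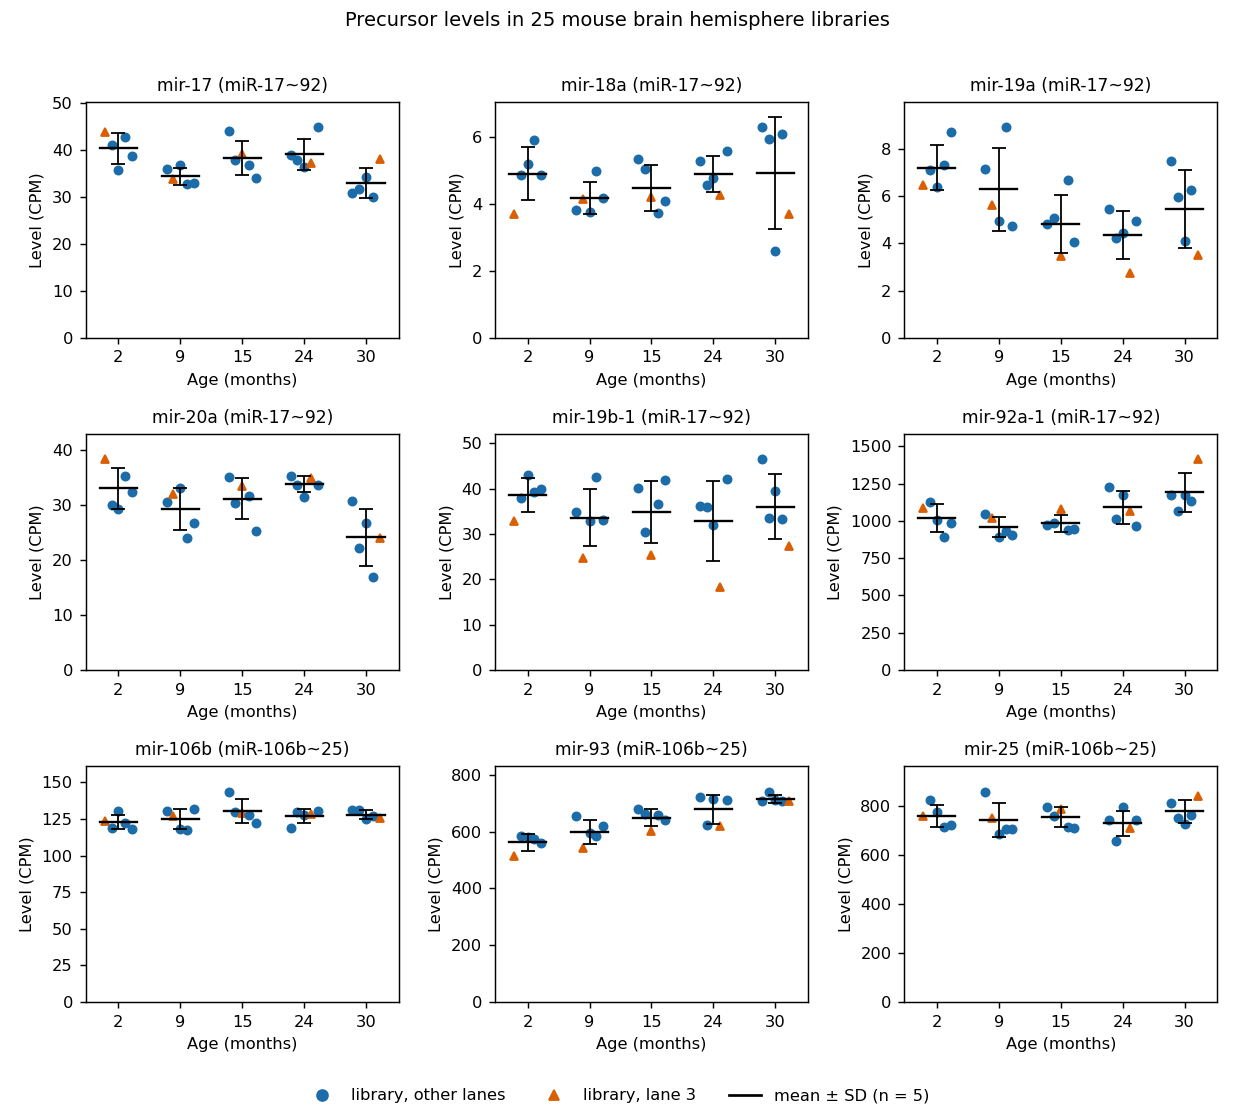
Level of each member (CPM, axes from 0) by age in months; points are libraries, triangles those of lane 3, and bars the mean ± SD (n = 5). mir-93 climbs through the 5 ages, mir-17 and mir-20a are low at 30 months, and mir-106b and mir-25 keep overlapping ranges.

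Ratios between hairpins of 1 cluster, taken within a library, do not depend on the scaling between libraries, and they are given as a description with no test of the difference between members. The denominators, mir-17 and mir-93, were themselves called between 30 and 2 months. The ratios therefore carry those changes and are no separate support for them. The log2 ratio of mir-92a-1 to mir-17 reads was 5.17 ± 0.08 at 30 months and 4.66 ± 0.17 at 2 months (SD, n = 5). All 5 older libraries lay above all 5 younger ones, at 5.07 to 5.24 against 4.38 to 4.82. The ratios of mir-18a, mir-19a, mir-19b-1 and mir-20a to mir-17 overlapped between these ages. How often ratios between other precursors separate in this way was not counted. At 9, 15 and 24 months the mean ratio was 4.80, 4.68 and 4.80, between the means at 2 and 30 months, and 3 of 5 libraries at 9 months and 3 of 5 at 24 months lay above all those at 2 months. The log2 ratio of mir-20a to mir-17 was more spread at 30 months, at -0.83 to -0.01, against -0.46 to -0.20 at 2 months. As a share of the cluster, mir-92a-1 held 91.9 ± 1.13% at 30 months and 89.1 ± 1.17% at 2 months, and mir-20a held 1.87 ± 0.391% at 30 months and 2.91 ± 0.424% at 2 months.

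In the Mcm7 cluster both neighbours lay lower relative to mir-93, which itself rose, at 30 than at 2 months. Their own log2 fold changes were 0.04 (mir-25) and 0.06 (mir-106b), so these ratios mainly restate the rise of mir-93. The log2 ratio of mir-25 to mir-93 averaged 0.43, 0.31, 0.22, 0.11 and 0.12 at 2, 9, 15, 24 and 30 months. At 30 months it ran from 0.02 to 0.25, below each of the 2-month libraries at 0.32 to 0.57. The ratio of mir-106b to mir-93 averaged -2.20, -2.26, -2.31, -2.42 and -2.48 at these ages, and here too the 30-month libraries (-2.51 to -2.43) lay below those at 2 months (-2.30 to -2.06). Again, no share of separated ratios over other precursors was counted. Without lane 3 the mean log2 differences at 30 minus 2 months were -0.31 for mir-25 over mir-93, -0.25 for mir-106b over mir-93 and 0.50 for mir-92a-1 over mir-17, against -0.31, -0.29 and 0.51 with all libraries.

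**Figure D4:**
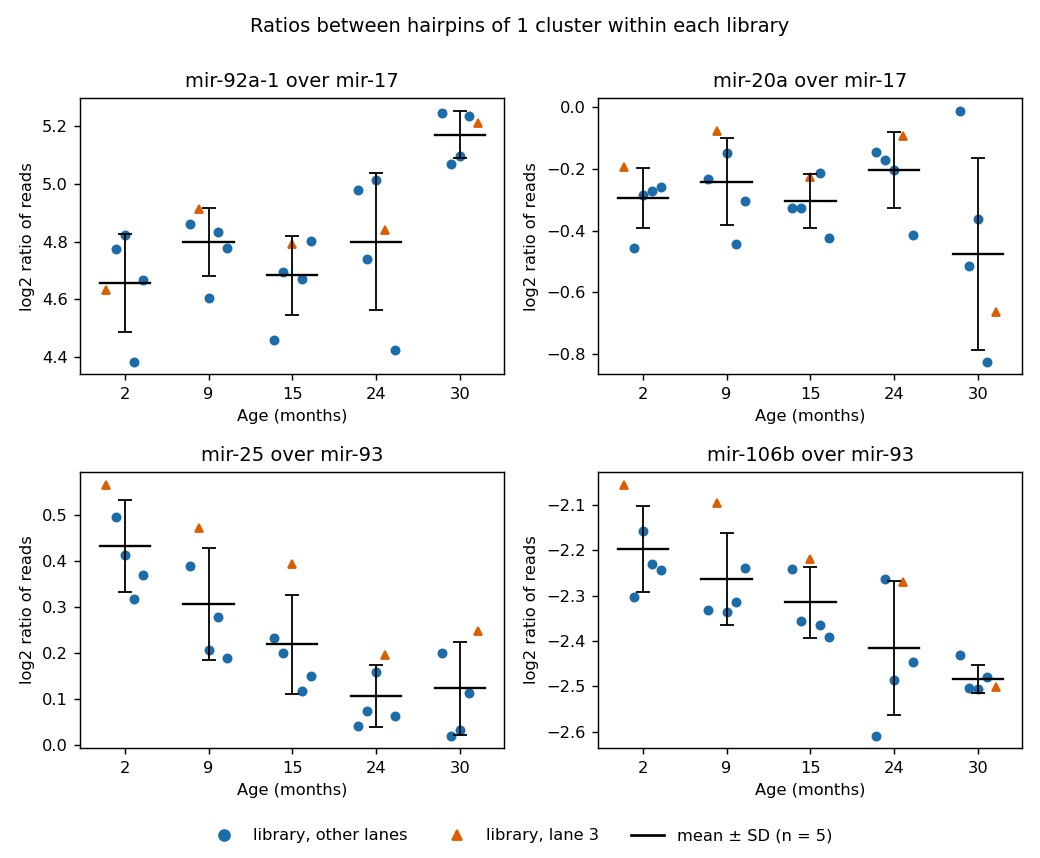
log2 ratio of reads between hairpins of 1 cluster in each library by age in months; triangles are lane 3 libraries and bars the mean ± SD (n = 5). mir-92a-1 over mir-17 is highest at 30 months (5.07 to 5.24), and both ratios over mir-93 are lower at 30 than at 2 months with no overlap. The denominators, mir-17 and mir-93, changed between these ages themselves, and separation of ratios between other precursors was not counted.

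Grouped by seed, members with identical bases 2 to 8 went in opposite directions: of the 4 with AAAGUGC, mir-93 rose, mir-17 and mir-20a fell, and mir-106b did not pass. mir-93 held 71.4% to 80.3% of their summed level. The 6 loci of that seed together, with mir-106a and mir-20b, reached 902 ± 15.6 CPM at 30 months, against 761 ± 25.4 CPM at 2 months (SD, n = 5). The GUGCAAA loci summed to 76.7 ± 13.6 CPM at 30 months and 84.0 ± 11.1 CPM at 2 months. The AUUGCAC loci summed to 8521 ± 574 CPM at 30 months and 7926 ± 655 CPM at 2 months, and there mir-92b, a separate locus outside these clusters, held 73.0% to 77.5%. Summed over all hairpins, miR-17~92 reached 1294 ± 130 CPM at 30 months and 1144 ± 89.6 CPM at 2 months, and miR-106b~25 reached 1624 ± 44.8 CPM at 30 months and 1446 ± 60.2 CPM at 2 months. These sums consist mainly of mir-92a-1, mir-25 and mir-93, so mir-17 and mir-20a weigh little in them.

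Among the 6 loci of the X-linked paralogous cluster, 3 passed the filter on low counts and 0 were called between 30 and 2 months. They were mir-92a-2 (log2 fold change 0.19 ± 0.12, SE, edgeR adjusted p = 0.207), mir-19b-2 (-0.12 ± 0.18, adjusted p = 0.618) and mir-363 (-0.28 ± 0.24, adjusted p = 0.475). mir-106a, mir-20b and mir-18b averaged 0.317, 0.876 and 0.0754 CPM over 25 libraries. When each paralogous pair was summed before the test, mir-92a-1 with mir-92a-2 gave 0.21 and mir-20a with mir-20b -0.47, and the 4 calls between 30 and 2 months held. Of the other AUUGCAC loci, mir-92b lay at 0.09 ± 0.06 (adjusted p = 0.279) and mir-32 at -0.10 ± 0.10 (adjusted p = 0.468), while mir-367 was at 0 reads in all 25 libraries. The embryonic miR-290 and miR-302 precursors, with a related seed, summed to at most 1.24 CPM in a library and none of the 10 passed the filter.

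Red blood cells and other cell types also carry these miRNAs, so their marker lists are set beside the results. Of 4 erythroid precursors 0 passed between 30 and 2 months with edgeR (log2 fold changes from 0.18 to 0.79, adjusted p from 0.0828 to 0.610), with a summed level of 2523 to 4999.7 CPM at 30 months and 2068 to 3493 CPM at 2 months. Of these mir-144 had an unadjusted p under 0.05. mir-486a and mir-486b averaged 1484 and 1475 CPM at 30 months and 1309 and 1300 CPM at 2 months. They may not be separate measurements, and they hold most of the erythroid sum. Across the 25 libraries the erythroid sum had r = 0.47 with the summed miR-106b~25 level (0.49 without lane 3) and r = -0.01 with that of miR-17~92 (0.22 without lane 3). With miR-106b~25 the leukocyte sum had r = -0.29, the endothelial mir-126a -0.04 and the neuron sum -0.12. With miR-17~92 these were 0.004, 0.10 and -0.09. No r was calculated for the oligodendrocyte sum, so the marker lists cannot be ranked by their likeness to the clusters. Taken singly, the oligodendrocyte precursors mir-338 and mir-219a-1 each had r = 0.69 with miR-106b~25 (0.65 and 0.63 without lane 3). The erythroid mir-144 also had r = 0.69 (0.70 without lane 3). The oligodendrocyte mir-219a-2 was not among the precursors listed as most like this cluster. Age was not removed from any of these values. Of 3 leukocyte precursors mir-142a rose (0.39, adjusted p = 0.0119) and mir-150 fell (-0.50, adjusted p = 1.37e-05), and their sum ran from 914 to 1076 CPM at 30 months, against 1087 to 1244 CPM at 2 months. All 3 oligodendrocyte precursors rose, and their sum ran from 3612 to 4554 CPM at 30 months, against 2487 to 2913 CPM at 2 months. Of 8 neuronal precursors 2 fell, both copies of mir-128, and the sum ran from 62080 to 79792 CPM at 30 months and from 69180 to 79741 CPM at 2 months. All 8 are copies of mir-124, mir-9 or mir-128, and copies may not be separate measurements. At 2 months those of mir-124 averaged 2491, 2493 and 2491 CPM, and those of mir-9 11331, 11344 and 11310 CPM. The endothelial mir-126a lay at 0.02 ± 0.04 (adjusted p = 0.748), and neither choroid plexus precursor passed (0.15 and 0.36). The part of these cell types in the changes of mir-93, mir-92a-1, mir-17 and mir-20a was not tested.

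Likeness across the 25 libraries was described by Pearson's r of log2(CPM + 0.5), with no p. The libraries span 5 ages and age was not removed, so changes with age are part of each r. The points also share depth, lane and scaling. Of the 36 pairs of members, within and across the clusters, mir-17 and mir-20a had the highest r (0.72, Spearman's rho 0.71, r = 0.68 without the 2 libraries farthest from the median of mir-17, r = 0.77 without lane 3). mir-17 and mir-92a-1, cut from the same transcript, gave r = -0.10, and mir-93 and mir-25 gave 0.25. Across the clusters mir-92a-1 gave 0.58 with mir-25 (0.51 without lane 3) and 0.44 with mir-93 (0.60 without lane 3). Outside the related families, and among the 314 tested precursors averaging 10 CPM or more, the 5 most like the summed miR-17~92 level were mir-423 (0.80), mir-666 (0.78), mir-142b (0.77), mir-142a (0.76) and mir-421 (0.72). For the summed miR-106b~25 level they were mir-21a (0.72), mir-3065 (0.69), mir-338 (0.69), mir-144 (0.69) and mir-219a-1 (0.69). mir-142b and mir-3065 lie opposite mir-142a and mir-338. If counting ignored strand, the levels within each such pair would not be separate measurements, and the strand setting was not given.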

How the data were processed

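The authors deposited whole-number read counts per miRNA precursor for 25 libraries in 1 table, and every column was used. Per the labels' protocols, a TruSeq small RNA kit was used. Trimmomatic 0.36, SAMtools 1.3.1-9 and bcl2fastq 1.8.4 appear in the submitters' processing notes. How reads were aligned, counted or shared among several matches, with which strand and build, was not given in the sources used here. Ages came from the labels and lanes from the column names.

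Counts were analysed with R 4.3.3 and edgeR 4.0.16 (filterByExpr, TMM factors 0.952 to 1.04, 1 quasi-likelihood fit over all 25 libraries with a mean per age), with Benjamini-Hochberg adjustment over 425 precursors and a threshold of 0.05. The slope used age as a number. SE is the log2 fold change over the square root of F. DESeq2 1.42.0 was an alternative, beside 3 scalings, 2 filters, lane, left-out libraries, the 2 ages alone and summed paralogs. The fit was tested on simulated data. Plots used Python 3.11.15 and matplotlib 3.10.9.

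The members and lists were chosen with earlier results of these data known; all 9 members are named, and the other names follow the lists and a likeness rule (5 highest correlations per cluster). Between 2 replicates of 1 age the chi-square per degree of freedom was 22.1 to 346 over 50 pairs, so no library was taken as deposited again. Reads carry no molecular identifiers and may be PCR copies, so precision rests on the spread between animals.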

Additional observations from a re-analysis of the deposited data

Results flagged for a closer look

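Of 45 sets of 5 libraries (9 members at 5 ages), 2 held a library far from the others by Dixon's test, and chance flags about 1 in 20. mir-106b at 24 months was low in replicate 1 (118.6 CPM), where the next library lay at 127.7 CPM and the highest at 130.4 CPM. mir-93 at 30 months was high in replicate 2 (741 CPM), where the other 4 lay between 708 and 710.4 CPM. Both libraries were of lane 6. The rise of mir-93 at 30 against 2 months held without replicate 2 of 30 months, as it did without any other single library.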

How the results depend on the processing

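The rise of mir-93 and the falls of mir-17 and mir-20a at 30 against 2 months kept their direction and stayed past the threshold in 35 of 35 alternatives each. Members called higher in that comparison numbered 2 and came to 1 under upper-quartile scaling, without lane 3 and with only the 2 ages fitted, mir-92a-1 being lost each time; leaving out 1 library gave 1 to 2 higher and 2 to 3 lower. Members lower at 30 against 24 months numbered 1, and 2 under upper-quartile scaling, with library totals, with a mean of at least 10 CPM, without lane 3 and with paralogs summed; with only the 2 ages fitted it was 0, and leaving out 1 library gave 1 to 2. Along the slope 1 member fell, and 0 did with no filter, with a mean of at least 10 CPM (where mir-19a and mir-18a were not tested) and without lane 3; leaving out 1 library gave 1 to 2 higher and 0 to 2 lower. Any difference was called for 4 to 5 members without 1 library (4 with all), and a departure from the line for 0 to 1 (0 with all, 1 with DESeq2). Of 2477 values of single members over 72 results, 28 lost and 30 gained a call, 79 that were never called changed sign, and 0 called values reversed. The causes were not tested. No paired analysis was possible because numbers were given in accession order and no label ties animals of different ages by number; lane, which libraries of different ages do share, was fitted as a covariate instead and left the 4 calls at 30 against 2 months in place. Scaling moved the median log2 fold change of all precursors at 30 against 2 months between -0.02 and 0.05. Depth limits mir-18a and mir-19a, at 14 to 52 reads per library.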
